A study of Mus musculus with 25 samples.

Results

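Prostaglandin synthesis and the prostaglandin E2 receptor gene Ptger3 were followed in gonadal white adipose tissue across 25 mouse arrays. The 10 genes listed were 4 receptor genes (Ptger3, Ptger2, Ptger4 and Ptgfr) and 6 genes of synthesis (Ptgs1, Ptgs2, Ptges, Ptgis, Ptgds and Hpgds). A gene was read from its transcript cluster, the set of probes that stands for 1 transcript on the array, and the cluster with the highest mean was taken where a symbol had several. By this rule 9 of the 10 were measured, each from 1 cluster, among 22180 genes in all, and Ptgs1 was not analysed here. Ptger3 was chosen by its measured values, which differed between chow and both diets, so values against chow are given as a description with no test.

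Prostaglandins are made from arachidonic acid, which phospholipases release from membranes and the cyclooxygenases Ptgs1 and Ptgs2 convert to prostaglandin H2. Terminal synthases then make prostaglandin E2 (Ptges), prostacyclin (Ptgis) or prostaglandin D2 (Ptgds and Hpgds). Adipocytes carry Ptger3, whose protein couples to the inhibitory G protein, and prostaglandin E2 acting through it is known to lower cyclic AMP and lipolysis. Ptger2 and Ptger4 couple to the stimulatory G protein and are known in macrophages and other immune cells, and Ptgfr is the receptor for prostaglandin F2α.

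All mice were male and heterozygous for apoE3L.CETP, a transgenic background with the human APOE*3-Leiden and CETP genes that gives the animals a more human-like lipoprotein profile. Chow mice were sampled at an age of 12 weeks as the baseline (2 arrays). The others received, from 12 weeks of age, either a low fat diet (LFD; 20% protein, 70% carbohydrate, 10% fat) or a high fat diet (HFD; 20% protein, 20% carbohydrate, 60% fat with 0.25% cholesterol) for 4, 8 or 12 weeks, and groups are named by weeks and diet (4LFD to 12HFD). Each group held 4 arrays except 4HFD, which held 3. The labels call the arrays biological replicates, and they give ages of 16 and 20 weeks for the 4- and 8-week groups and of 34 weeks for the 12-week groups, so time on diet is used here. Because chow differed from the diet groups in diet, age and time together, these cannot be told apart in any value against chow.

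Values are log2 array values, and a difference of 1 is a doubling. Levels of different genes are not compared, because each cluster has its own probes. Array medians lay between 5.04 and 5.36 and pairs of arrays correlated between 0.909 and 0.992. The mean of 7 measured adipocyte markers was 11.11 in chow array 1 and between 11.90 and 12.35 in the 23 diet arrays. Markers of 2 other tissues set arrays apart. Epididymis genes (12 measured of 14 listed) averaged 12.04 in chow array 1, 10.34 in 4HFD array 1 and 5.59 in 4LFD array 1, against 3.66 to 3.98 in the other 22 arrays. Hepatocyte genes (14 measured) averaged at least 9.59 in 11 of the 16 arrays at 8 and 12 weeks and at most 7.85 in the other 5, in both diets. Of the 9 measured genes, 6 lay at or above the median gene mean of 5.76, and Ptger2, Ptgs2 and Ptgds lay below it.

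The sequences just upstream of the 3 genes on which most of the results turn are printed to show how they differ in base composition: Ptger3, the receptor that set chow apart, and Ptger2 and Ptges, the 2 genes called between the diets. Each is the 250 bases before the annotated start in RefSeq (build GRCm38.p6), written 5′ to 3′ on the strand of the gene. Capitals mark the GC box (GGGCGG, or CCGCCC on the other strand) and the CCAAT box (CCAAT, or ATTGG). The regions are chr3:157566626-157566875 on the plus strand for Ptger3, chr14:44987861-44988110 on the plus strand for Ptger2 and chr2:30903298-30903547 on the minus strand for Ptges.
Ptger3: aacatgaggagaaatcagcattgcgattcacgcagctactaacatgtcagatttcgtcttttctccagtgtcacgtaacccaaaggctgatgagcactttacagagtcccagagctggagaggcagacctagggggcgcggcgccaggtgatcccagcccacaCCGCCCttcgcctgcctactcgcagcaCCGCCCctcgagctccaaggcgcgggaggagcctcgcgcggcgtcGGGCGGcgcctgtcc
Ptger2: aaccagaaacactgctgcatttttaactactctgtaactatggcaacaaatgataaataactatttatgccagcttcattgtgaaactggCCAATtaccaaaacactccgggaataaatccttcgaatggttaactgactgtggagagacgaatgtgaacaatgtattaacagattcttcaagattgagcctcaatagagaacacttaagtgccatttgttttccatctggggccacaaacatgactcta
Ptges: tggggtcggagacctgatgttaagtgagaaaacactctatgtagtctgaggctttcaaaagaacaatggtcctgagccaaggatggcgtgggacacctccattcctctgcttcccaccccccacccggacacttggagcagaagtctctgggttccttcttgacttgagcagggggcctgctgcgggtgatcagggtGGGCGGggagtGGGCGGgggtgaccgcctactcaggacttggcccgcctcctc
The Ptger3 sequence was 62% G or C with 21 CpG dinucleotides and 3 GC boxes. The Ptges sequence was 59.6% G or C with 8 CpG and 2 GC boxes, and the Ptger2 sequence was 38% G or C with 3 CpG, no GC box and 1 CCAAT box. Over 32851 upstream sequences of the same length the median was 52.4% G or C and 6 CpG, and 32.7% held a GC box and 33.8% a CCAAT box. These matches describe letters only and no factor's binding was measured.

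Ptger3 had its lowest values in chow. They were 7.77 and 8.50 in the 2 chow arrays, and in the 23 diet arrays the lowest was 10.04 and the highest 11.51. Both chow arrays therefore lay below every diet array, whichever the diet and the time. The mean over the LFD groups was 2.92 above the chow mean (7.59-fold) and the mean over the HFD groups 2.69 above it (6.47-fold). Chow array 1 also had the low adipocyte mean and the epididymis transcripts; against chow array 2 alone, whose adipocyte mean was 12.23, the differences were 2.56 and 2.33. Fewer adipocytes and less Ptger3 RNA per adipocyte cannot be told apart in bulk tissue. At 4 weeks, the earliest diet samples, 4LFD was already 2.54 and 4HFD 2.92 above chow (mean differences, log2).

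**Figure D1:**
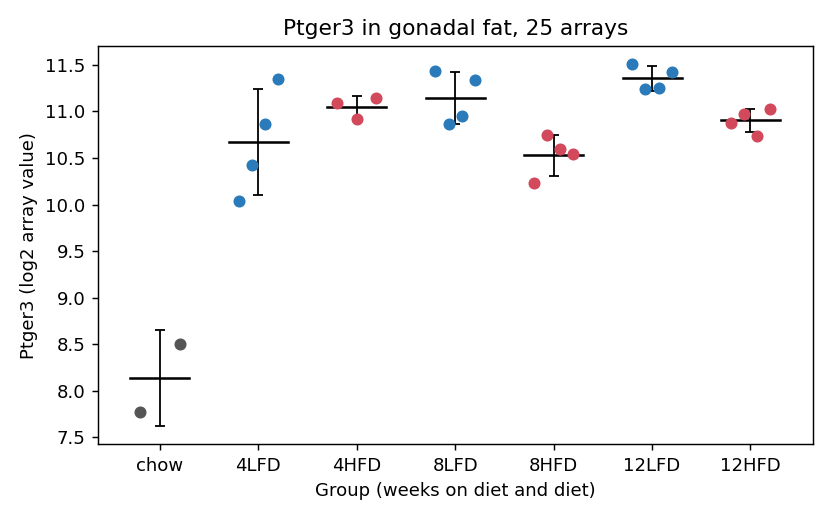
Ptger3 log2 array values (vertical axis) in each group of weeks and diet (horizontal axis); points are single arrays (grey chow, blue LFD, red HFD) and bars are mean ± SD. The 2 chow arrays, at 7.77 and 8.50, sit below all 23 diet arrays, which lie between 10.04 and 11.51.

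Both chow arrays lay below all diet arrays for 527 of the 22180 genes (2.38%), and either below or above all of them for 3.57%. By size, the rise of Ptger3 over chow ranked 26th of all genes for LFD and 57th for HFD, while the median gene differed by 0.03 and 0.00. None of the other 8 measured genes of the set had both chow arrays outside the range of the diet arrays. Their LFD and HFD means minus the chow mean were 1.03 and 0.39 for Ptges, 0.65 and 0.66 for Ptgfr, and 0.48 and 0.49 for Ptgis. Hpgds stood 0.27 and 0.77 above chow, Ptgs2 0.17 and 0.23, Ptger4 0.01 and 0.31, and for Ptger2 the differences were -0.10 and 0.51. Against chow array 2 alone they were 1.32 and 0.69 for Ptges, 0.46 and 0.47 for Ptgfr, and 0.38 and 0.38 for Ptgis. Hpgds stood 0.05 and 0.55 above that array and Ptgs2 0.26 and 0.32. The means of Ptger4 (-0.33 and -0.03) and Ptger2 (-0.69 and -0.08) lay below it on both diets. Ptgds is described with the epididymis markers.

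Among the other genes of prostanoid metabolism, 22 of the 30 names listed were measured. Both chow arrays were below all diet arrays for 3 of these 22, where 2.38% of all genes showed this. As the list was written with earlier results known, this count is a description only. Pla2g2e, a secreted phospholipase A2, read 6.42 and 6.70 in chow and 6.89 to 8.09 on the diets. Prxl2b, which reduces prostaglandin H2 to prostaglandin F2α, read 7.15 and 7.58 in chow and 8.16 to 8.98 on the diets. Akr1b8, an aldo-keto reductase, read 4.71 and 4.96 in chow and 5.02 to 6.32 on the diets. None of 8 measured receptors that also lower lipolysis or couple to the inhibitory G protein in fat (among them Hcar1, Hcar2, Sucnr1 and Ffar2) showed this separation. Hcar1, the lactate receptor, was 10.02 in chow array 2, above every diet array.

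Across the diet groups Ptger3 took different orders at different times. In the diet groups the order of the means (± SD) was 8HFD (10.53 ± 0.22), 4LFD (10.67 ± 0.57), 12HFD (10.91 ± 0.13), 4HFD (11.05 ± 0.12), 8LFD (11.15 ± 0.28) and 12LFD (11.36 ± 0.13), with n = 3 for 4HFD and 4 for the others. Each neighbouring pair in that order had overlapping arrays. The SD of 4LFD reflected values of 10.04, 10.43, 10.87 and 11.35, of which the lowest was the array with epididymis transcripts.

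At 4 weeks the Ptger3 arrays of 4HFD (11.09, 10.92 and 11.14) lay within the range of 4LFD, and HFD minus LFD was 0.38 ± 0.23 (SE; limma, Benjamini-Hochberg adjusted p = 0.648). It was 0.17 without 4LFD array 1, 0.15 without the 3 arrays with epididymis transcripts and 0.60 without 4LFD array 4. At 8 weeks Ptger3 read 11.43, 10.87, 10.95 and 11.34 on LFD and 10.23, 10.75, 10.60 and 10.54 on HFD. Every 8HFD array was below every 8LFD array. The difference was -0.62 ± 0.21 and was not called (limma adjusted p = 0.133). After 12 weeks its values were 11.51, 11.24, 11.25 and 11.42 on LFD and 10.88, 10.97, 10.74 and 11.03 on HFD, again with no overlap. That difference, -0.45 ± 0.21, was also not called (limma adjusted p = 0.285; 95% interval -0.88 to -0.02). Within the arrays with high hepatocyte transcripts, a split chosen after the data had been seen, HFD minus LFD for Ptger3 was -0.52 at 8 and -0.43 at 12 weeks, and in the other arrays -0.92 (1 HFD against 2 LFD arrays) and -0.51 (1 against 1). Without the 3 arrays with epididymis transcripts, none of which is an 8-week array, the 8-week difference was called (limma adjusted p = 0.0325) and the 12-week difference was not (limma adjusted p = 0.109). With the 2 compared groups fitted alone it was the reverse, with limma adjusted p of 0.0761 at 8 weeks and 0.0388 at 12 weeks.

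From 4 to 8 weeks the Ptger3 differences had opposite signs on the 2 diets. On LFD it was 0.48 ± 0.21 higher at 8 than at 4 weeks and 0.68 ± 0.21 higher at 12 than at 4 weeks (limma adjusted p = 0.271 and 0.106). On HFD it was -0.52 ± 0.23 at 8 against 4 weeks (limma adjusted p = 0.487). The change of the diet difference from 4 weeks was -0.995 at 8 and -0.83 at 12 weeks, both taken from the 4-week difference that moved with single 4LFD arrays, with an unadjusted interaction p of 0.00885 and an adjusted p of 0.886 by limma's moderated F. Ptgfr gave the other unadjusted interaction p under 0.05 among the 9 genes, 0.0124, with changes of -0.59 and -0.75 and the same adjusted p of 0.886. By limma, 0 of the 22180 genes passed the adjusted interaction test (0% called), while 1199 had an unadjusted p under 0.05 (5.41%).

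At 4 weeks 0 of the 9 genes were called between the diets by limma, where 0.212% of all genes were called, and 1 of the 9 (Ptgfr) had an unadjusted p under 0.05, as did 9.33% of all genes. At 8 weeks 0 of 9 were called against 2.4% of all genes, and 4 (Ptger3, Ptger2, Ptges and Hpgds) had an unadjusted p under 0.05, as did 13.7% of all genes. At 12 weeks 1 of 9 was called, Ptger2, which rose, where 4.46% of all genes were called and 3.13% were called higher. Averaged over the 3 times, Ptger2 rose and Ptges fell, 2 of 9 where 10.5% of all genes were called. Of all genes, 6.03% were called higher and 4.44% lower on average. With 9 genes, 1 or 2 calls do not set the group apart from these backgrounds. At an unadjusted p under 0.05, 5 of the 9 passed at 12 weeks and 4 on average, where 16.1% and 21.9% of all genes did. Diet groups did not overlap for 1 of 9 genes at 4 weeks and for 3 of 9 at both 8 and 12 weeks, where 9.09%, 11.4% and 12.6% of all genes were separated. The median HFD minus LFD of the 9 genes was 0.22, -0.04 and -0.01 at 4, 8 and 12 weeks, against -0.002, -0.008 and -0.01 over all genes.

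**Figure D2:**
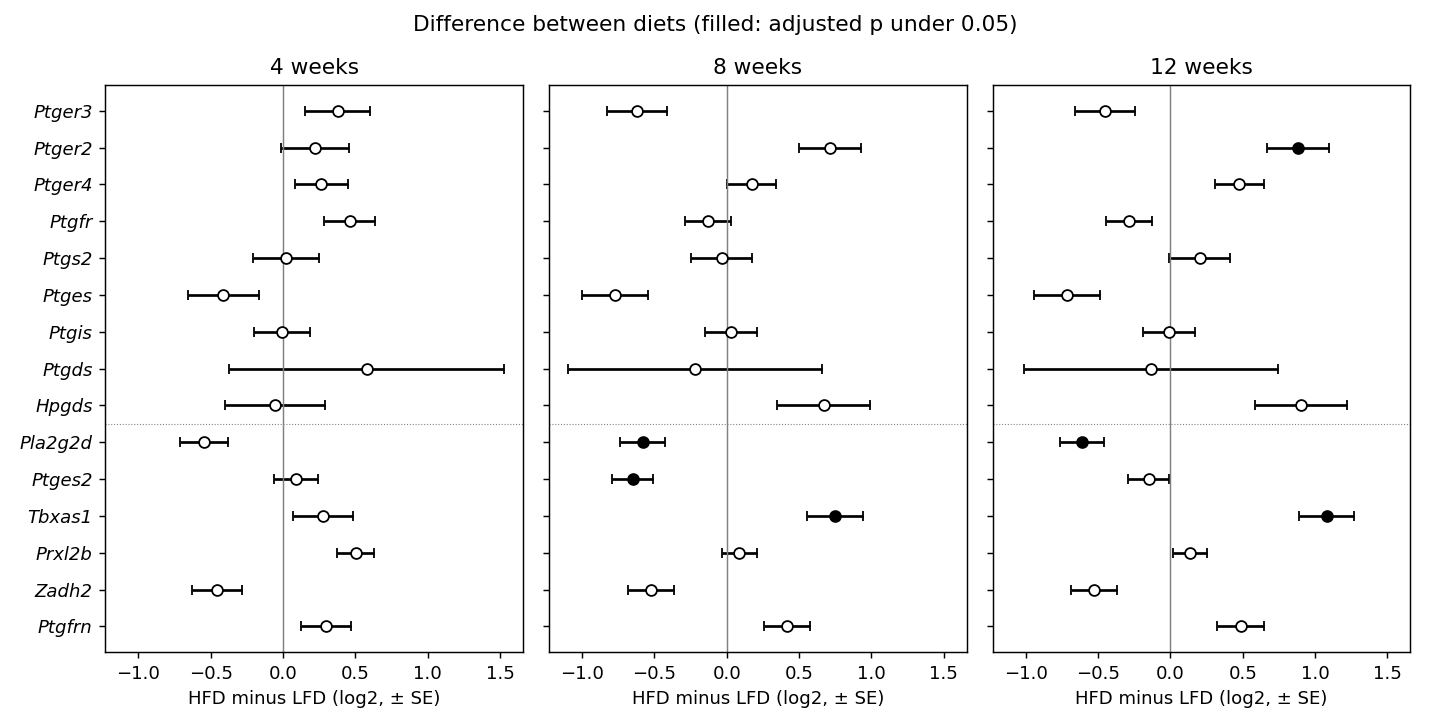
HFD minus LFD (log2, horizontal axis) at 4, 8 and 12 weeks for the 9 measured genes and, beyond the dotted line, the 6 other prostanoid genes called in any diet comparison; bars are limma standard errors and filled points have an adjusted p under 0.05. Among the 9 genes only Ptger2 at 12 weeks, at 0.89, is filled, and the Ptges points lie below 0 at each time.

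Ptger2, a stimulatory receptor for prostaglandin E2, rose on HFD at 12 weeks and had no overlap between the diets at 8 weeks. At 8 weeks it read 4.61, 4.57, 4.91 and 5.18 on LFD and 5.85, 5.40, 5.56 and 5.32 on HFD. The groups did not overlap, but the difference of 0.72 ± 0.22 was not called (limma adjusted p = 0.0854). At 12 weeks it read 4.92, 5.02, 4.78 and 4.56 on LFD and 5.52, 5.49, 6.31 and 5.50 on HFD, with 12HFD array 3 well above the other HFD arrays. The rise was 0.89 ± 0.22, or 1.85-fold (limma adjusted p = 0.0181). The mean of Ptger2 over the arrays, 5.175, lay below the median gene mean of 5.76. A filter on low values at that median leaves the gene out, so the call cannot be made under it. At 4 weeks the difference was 0.22 ± 0.23 (limma adjusted p = 0.824; 0.10 without 4HFD array 3), and averaged over the times it was 0.61 ± 0.13 (limma adjusted p = 0.00276).

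The 12-week call for Ptger2 was lost without either of 2 arrays. Without 12HFD array 3 the difference was 0.68 (limma adjusted p = 0.0887) and without 12LFD array 4 it was 0.80 (limma adjusted p = 0.0663). Within the arrays with high hepatocyte transcripts Ptger2 differed by 0.84 at 8 and 0.67 at 12 weeks. In the others it differed by 0.805 (1 HFD against 2 LFD arrays) and 1.53 (1 against 1, the HFD array being 12HFD array 3). With the hepatocyte split as a block the difference was 0.89 at 12 weeks (limma adjusted p = 0.00465). At 8 weeks it was 0.82 and was then called (limma adjusted p = 0.0200). At 12 weeks each diet held 3 high arrays and 1 other, so the block could not change the size of the difference. Macrophage markers rose on HFD in the same samples: 3 of 7 were called higher at 8 weeks and 6 of 7 at 12 weeks, with per-array means of 8.55 to 9.13 in 12LFD and 9.75 to 10.34 in 12HFD. Their part in the Ptger2 result was not tested.

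Ptger4, the other stimulatory receptor for prostaglandin E2, read 6.56, 6.78, 6.29 and 6.48 in 4LFD and 6.93, 6.85 and 6.60 in 4HFD. It read 7.19, 6.36, 6.61 and 6.81 in 12LFD and 7.06, 7.32, 7.35 and 7.14 in 12HFD. The diet groups overlapped at each time, at 12 weeks through 12LFD array 1 alone. HFD minus LFD was 0.27 ± 0.18, 0.17 ± 0.17 and 0.48 ± 0.17 at 4, 8 and 12 weeks, and 0.30 ± 0.10 on average (limma adjusted p = 0.0552), which was not called. The averaged difference was called with the diet groups alone (limma adjusted p = 0.0292), with a filter on low values (0.0307), with array weights (0.0139), with the hepatocyte block (0.0456), with hepatocyte and epididymis means as covariates (0.0381) and without any 1 of 5 arrays. These 5 include the 2 chow arrays, which are not part of the contrast. It was not called without any other single array. Nor was it called with quantile normalization (limma adjusted p = 0.0707), aligned array medians (0.0669), the replicate block (0.0619) or without the 3 arrays with epididymis transcripts (0.0683).

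Ptgfr was separated at 4 weeks only. It read 5.70, 6.18, 5.83 and 5.97 in 4LFD and 6.30, 6.34 and 6.50 in 4HFD, so every 4HFD array was above every 4LFD array. The difference was 0.46 ± 0.17 and was not called (limma adjusted p = 0.384). At 12 weeks it read 6.06, 6.23, 6.41 and 6.95 on LFD and 6.02, 5.92, 6.37 and 6.20 on HFD. HFD minus LFD there was -0.29 ± 0.16 (limma adjusted p = 0.414), with overlapping groups, and -0.11 without 12LFD array 4.

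Ptges, the inducible synthase of prostaglandin E2, was the gene of synthesis called between the diets. At 8 weeks it read 8.51, 8.29, 8.40 and 9.17 on LFD and 7.72, 7.96, 7.62 and 7.98 on HFD. After 12 weeks its values were 8.25, 8.00, 8.74 and 8.68 on LFD and 7.54, 7.80, 7.76 and 7.72 on HFD. All HFD arrays were below all LFD arrays at both times. The differences were -0.77 ± 0.23 and -0.71 ± 0.23, neither called at its own time (limma adjusted p = 0.0766 and 0.0819). At 4 weeks it read 7.40, 8.19, 8.27 and 8.67 on LFD and 7.52, 7.95 and 7.69 on HFD, and the groups overlapped through 4LFD array 1. Both 4LFD array 1 and 4HFD array 1 held epididymis transcripts, with epididymis means of 5.59 and 10.34. The 4-week difference was -0.41 ± 0.25 (limma adjusted p = 0.648). It was -0.66 without 4LFD array 1, a setting that keeps 4HFD array 1, and -0.23 without 4LFD array 4. Averaged over the times, Ptges fell by 0.63 on the log2 scale (SE 0.14; limma adjusted p = 0.0031).

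Without the 3 arrays with epididymis transcripts the Ptges differences at 8 and 12 weeks were unchanged in size, -0.77 and -0.71, and both were called (limma adjusted p = 0.0157 and 0.0177). None of these 3 arrays is an 8- or 12-week array, so leaving them out could not change the size of either difference. Only the standard errors and the adjustment over all genes could change. These calls therefore do not test whether epididymis transcripts had a part in the Ptges differences. Leaving out any 1 array kept the averaged difference between -0.71 and -0.57. Within the arrays with high hepatocyte transcripts Ptges differed by -0.55 at 8 and -0.62 at 12 weeks, and in the others, 1 HFD against 2 LFD arrays and 1 against 1, by -1.07 and -0.98. In chow it read 7.65 and 7.06, below every 8LFD and 12LFD array.

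**Figure D3:**
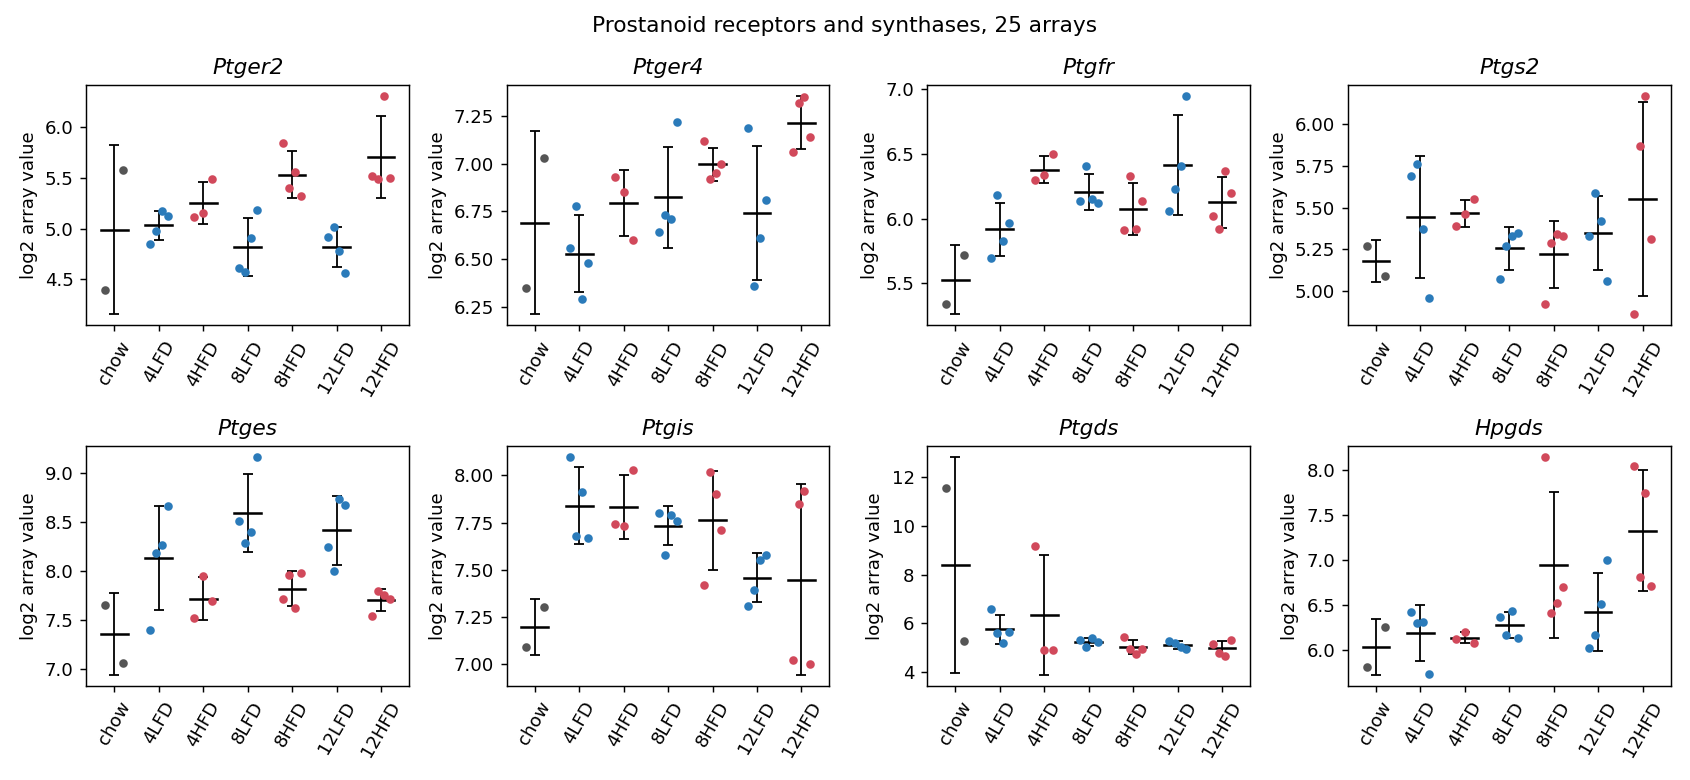
Log2 array values (vertical axes, 1 panel per gene) of the measured genes other than Ptger3 by group of weeks and diet (horizontal axes); points are single arrays (grey chow, blue LFD, red HFD) and bars are mean ± SD. In the Ptges panel the 8HFD and 12HFD arrays, from 7.54 to 7.98, lie below the 8LFD and 12LFD arrays, from 8.00 to 9.17.

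Ptgs2, the inducible cyclooxygenase, had overlapping diet groups at each time. Its 25 values lay between 4.86 and 6.17, both of these in 12HFD, which read 4.86, 5.87, 6.17 and 5.31. HFD minus LFD was 0.02 ± 0.23, -0.04 ± 0.21 and 0.20 ± 0.21 at 4, 8 and 12 weeks, with 95% intervals of -0.45 to 0.49, -0.47 to 0.40 and -0.23 to 0.64. All 3 intervals include 0, and the upper ends reach 0.64 higher on HFD.

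Ptgis, the prostacyclin synthase, also had overlapping diet groups at each time, with HFD minus LFD of -0.01 ± 0.20, 0.03 ± 0.18 and -0.01 ± 0.18. The arrays within 12HFD split, however, at 7.02, 7.85, 7.92 and 7.00. The mean of 7 mesothelial markers, genes of the cell layer that covers gonadal fat, was 6.97 and 6.52 in the 2 arrays with low Ptgis (arrays 1 and 4) and 8.00 and 8.06 in the other 2. In 8HFD array 1, the lowest Ptgis array of its group at 7.42, that mean was 7.31, below the other 8HFD arrays. Chow read 7.09 and 7.30 for Ptgis with mesothelial means of 7.47 and 7.23, while the diet arrays not named here had means of 7.72 to 8.12. This pairing of gene and marker list was chosen after the values had been seen, and the part of the mesothelial layer in the Ptgis values was not tested.

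Hpgds, the hematopoietic prostaglandin D synthase, read 6.37, 6.17, 6.43 and 6.13 in 8LFD and 8.15, 6.41, 6.52 and 6.70 in 8HFD. In the 12-week groups it read 6.02, 6.17, 6.51 and 7.00 on LFD and 8.05, 6.81, 7.74 and 6.71 on HFD. The groups overlapped at both times, although 3 HFD arrays stood above the rest of all 25. The differences were 0.67 ± 0.32 and 0.90 ± 0.32 (limma adjusted p = 0.362 and 0.130), and at 4 weeks -0.06 ± 0.35. Without 8HFD array 1 the 8-week difference was 0.27. Within HFD, Hpgds was 0.81 ± 0.35 higher at 8 and 1.19 ± 0.35 higher at 12 than at 4 weeks, neither called (limma adjusted p = 0.481 and 0.138).

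The 3 highest Hpgds arrays also had the 3 highest means of the 7 macrophage markers. 8HFD array 1 read 8.15 for Hpgds with a macrophage mean of 10.35, 12HFD array 1 read 8.05 with 10.34, and 12HFD array 3 read 7.74 with 10.17. The other arrays of those groups had macrophage means of 9.51 to 9.97. All 7 macrophage markers rose on HFD averaged over the times, among them Cd68 (1.78 ± 0.30 at 12 weeks) and Adgre1 (1.20 ± 0.22 at 12 weeks). Mast cells are also known for Hpgds. Of their 8 markers, 0 rose in any diet comparison and 2 fell on average, and the per-array mean lay between 4.68 and 5.56. At 4 weeks that mean was 5.40 to 5.56 on LFD and 4.90 to 5.04 on HFD, without overlap. At 8 and 12 weeks the diets overlapped. What part macrophages had in the Hpgds values was not tested.

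Ptgds, the lipocalin-type prostaglandin D synthase, followed the arrays with epididymis transcripts. It read 11.55 in chow array 1, 9.19 in 4HFD array 1 and 6.61 in 4LFD array 1, and between 4.68 and 5.63 in the other 22 arrays. These 3 arrays had the 3 highest epididymis means, in the same order. Over all arrays HFD minus LFD was 0.58 ± 0.95 at 4 weeks, -0.22 ± 0.88 at 8 weeks and -0.13 ± 0.88 at 12 weeks. With the 3 arrays left out the differences were -0.56 ± 0.20, -0.22 ± 0.16 and -0.13 ± 0.16, none of them called (limma adjusted p = 0.334, 0.501 and 0.709). Averaged over the times, the difference was 0.08 over all arrays (limma adjusted p = 0.964). Without the 3 arrays it was -0.30 and not called (limma adjusted p = 0.0505). With hepatocyte and epididymis means as covariates it was -0.29 and called (limma adjusted p = 0.0461). Against chow, the LFD and HFD means were -3.03 and -2.96 with both chow arrays and 0.11 and 0.18 against chow array 2 alone. Those diet means still hold 4LFD array 1 and 4HFD array 1, so they are not free of epididymis transcripts. The 8- and 12-week groups, without such arrays, averaged 5.245 and 5.117 on LFD and 5.028 and 4.985 on HFD. Chow array 2 read 5.27.

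**Figure D4:**
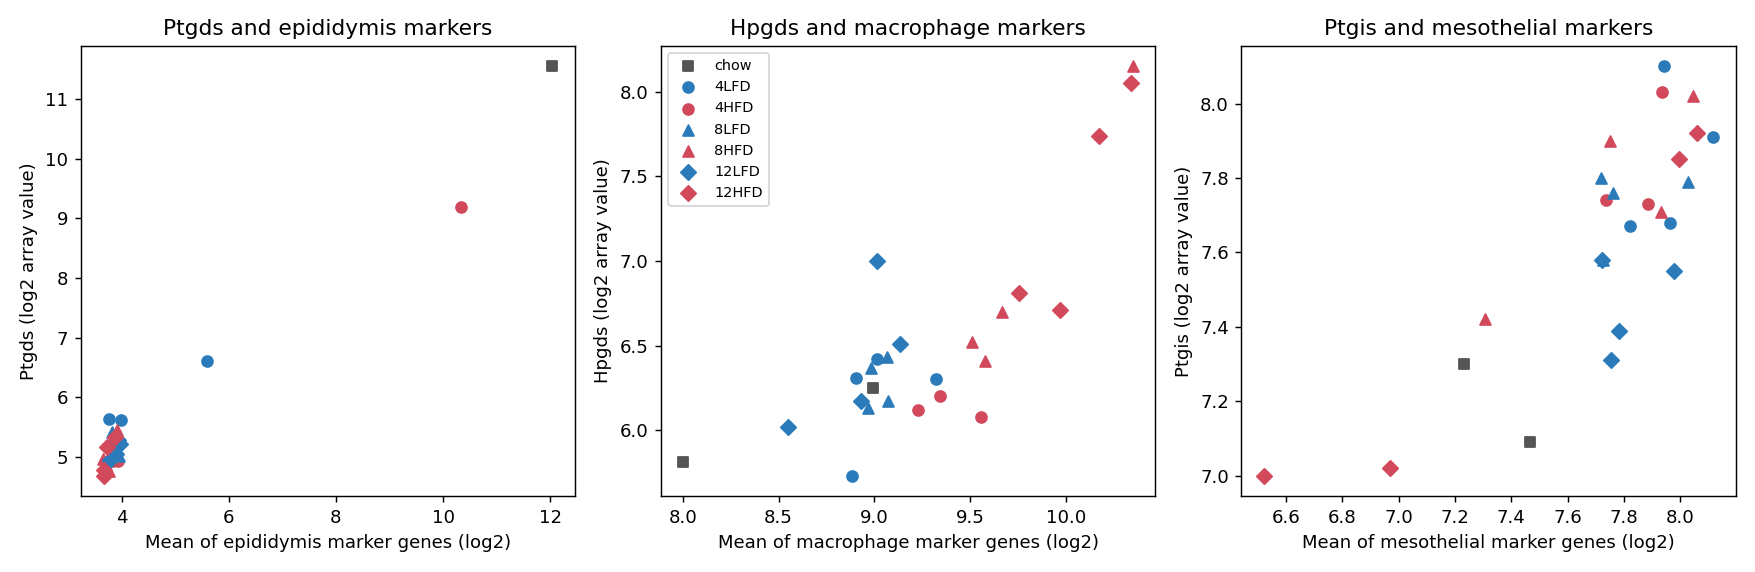
Log2 values of Ptgds, Hpgds and Ptgis (vertical axes) against the mean log2 value of the epididymis, macrophage and mesothelial markers (horizontal axes), 1 point per array, with colour for diet and shape for weeks. Ptgds is above 6 in the 3 arrays with epididymis transcripts only, Hpgds is highest in 3 HFD arrays with macrophage means above 10, and Ptgis is lowest in 2 arrays of 12HFD with mesothelial means of 6.97 and 6.52.

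Within each diet, limma called 0 of the 9 genes in any of the 6 comparisons between times. All genes were called at rates of 0.636%, 0.681% and 0.0676% for LFD at 8 against 4, 12 against 4 and 12 against 8 weeks, and at 0%, 0.573% and 0.0361% for HFD in the same order. At an unadjusted p under 0.05 1, 3 and 0 of the 9 passed on LFD, where 15.5%, 15% and 8.91% of all genes did, and 2, 2 and 0 on HFD, where 8.85%, 11.2% and 7.37% did. Besides Ptger3 and Hpgds, these included Ptgfr on LFD (0.49 ± 0.16 at 12 against 4 weeks; limma adjusted p = 0.124), Ptgis on LFD (-0.38 ± 0.18; limma adjusted p = 0.323) and Ptger4 on HFD (0.42 ± 0.18; limma adjusted p = 0.378).

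Of the 22 other measured genes of prostanoid metabolism and signalling, 0 were called between the diets at 4 weeks by limma. At 8 weeks 1 rose and 2 fell, at 12 weeks 1 rose and 1 fell, and on average 3 rose and 2 fell. Of all genes 2.4%, 4.46% and 10.5% were called in these 3 comparisons. Their median HFD minus LFD was 0.05, 0.01 and 0.13 at 4, 8 and 12 weeks, against -0.002, -0.008 and -0.01 over all genes. The list was written with earlier results of these data known.

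Tbxas1, thromboxane A synthase, rose on HFD. At 12 weeks it read 6.45, 6.59, 6.66 and 6.61 on LFD and 7.77, 7.34, 7.77 and 7.75 on HFD. The groups were far apart, by 1.08 ± 0.19 (limma adjusted p = 0.0021), and at 8 weeks the rise was 0.75 ± 0.19 (limma adjusted p = 0.0417). In 8HFD array 1, the array with the highest macrophage mean, Tbxas1 read 8.06, its highest value.

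Pla2g2d, a secreted phospholipase A2 of lymphoid and myeloid tissue, was lower on HFD with no overlap at any of the 3 times. In the 12-week groups it read 8.18, 7.97, 8.31 and 8.27 on LFD and 7.26, 7.87, 7.60 and 7.55 on HFD. It fell by 0.58 at 8 weeks (SE 0.15; limma adjusted p = 0.0447) and by 0.61 at 12 weeks (SE 0.15; limma adjusted p = 0.0209). At 4 weeks the difference of -0.55 ± 0.17 was not called (limma adjusted p = 0.246).

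Ptges2, a further prostaglandin E synthase, fell on HFD at 8 weeks by 0.65 (SE 0.14; limma adjusted p = 0.0167). Its 8LFD arrays lay between 7.72 and 7.79 and were higher than every other array in the study, while 8HFD lay between 6.86 and 7.37. At 12 weeks, with -0.15 ± 0.14, it was not called. Zadh2, a prostaglandin reductase, fell by 0.50 on average (SE 0.09; limma adjusted p = 0.000928). Prxl2b rose by 0.24 ± 0.07 on average (limma adjusted p = 0.0279), and Ptgfrn, a negative regulator of the prostaglandin F2α receptor, rose by 0.40 ± 0.10 (limma adjusted p = 0.00731).

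Hpgd, which inactivates prostaglandin E2, and Cbr1, a carbonyl reductase that can make prostaglandin F2α, were named for their level and were not called. Hpgd read 9.48, 9.51, 9.75 and 9.48 in 12LFD and 9.21, 9.32, 8.92 and 8.99 in 12HFD, without overlap, and differed by -0.45 ± 0.19 (limma adjusted p = 0.239). Cbr1 differed by -0.53 ± 0.16 at 12 weeks (limma adjusted p = 0.0591). Plaat3, the phospholipase of adipocytes that can feed prostaglandin E2 synthesis, differed by -0.10 ± 0.21 at 12 weeks, with a 95% interval of -0.54 to 0.35.

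Of the 8 measured receptors that share the antilipolytic or inhibitory coupling of Ptger3 (of 11 listed), 1 rose on HFD on average by limma and 0 fell, where 10.5% of all genes were called and 6.03% were called higher. This was Ffar2, a receptor for short-chain fatty acids, at 0.61 ± 0.17 (limma adjusted p = 0.0197). It read 5.77, 5.98, 6.19 and 6.30 in 12LFD and 6.61, 6.45, 7.04 and 6.56 in 12HFD, without overlap. Sucnr1, the succinate receptor, differed by 0.44 ± 0.16 on average (limma adjusted p = 0.0844). Hcar1 differed by -0.33 ± 0.19 (limma adjusted p = 0.365) and Ffar4, a receptor for long-chain fatty acids, by -0.31 ± 0.17 (limma adjusted p = 0.309). The averaged Ptger3 difference, -0.23 ± 0.12 (limma adjusted p = 0.296), was among those not called.

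The genes whose values were most like those of Ptger3 over the 25 arrays were Rpe, a pentose phosphate enzyme (Pearson r = 0.91, Spearman rho = 0.69), and Dgat2, which makes triglycerides (0.90 and 0.50). Slc22a4, an organic cation transporter (0.90 and 0.33), Orm1, an acute phase protein (0.90 and 0.43), and Tmem182 (0.89 and 0.53) followed. In the 23 diet arrays alone the Pearson r of these 5 was 0.70, 0.50, 0.44, 0.35 and 0.63, so much of the likeness lay in the 2 chow arrays. Dgat2, for example, averaged 11.67 in chow and between 12.79 and 13.01 in the diet groups.

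With each group's mean removed and chow left out, the closest were Pdhx, a component of the pyruvate dehydrogenase complex (Pearson r = 0.87, Spearman rho = 0.82), and Prdx3, a mitochondrial peroxidase (0.84 and 0.85). Hlx, a homeobox factor (0.84 and 0.69), Gfm2, a mitochondrial elongation factor (0.82 and 0.76), and Ptcd3, a mitochondrial ribosome protein (0.82 and 0.77), came next. Within the set, the same measure was 0.64 between Ptger3 and Ptges, -0.48 between Ptger3 and Hpgds and -0.41 between Ptger3 and Ptgs2. These are descriptions over arrays that share groups, tissue and processing, and they carry no p-value.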

How the data were processed

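Total RNA from gonadal fat was hybridised to Mouse Gene ST arrays (version 2.0). The authors used Transcriptome Analysis Console 4.0.2, as the design text and the submitters' processing notes say. The deposited values were taken as log2, since they run from 1.73 to 14.13. How background was corrected, probes summarised or arrays normalized is not given in these sources. Of 34472 clusters, 23521 carried 1 gene symbol in the platform's gene table, 1814 several and 9137 none. For the 1082 genes with more than 1 cluster the one with the highest mean was used.

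limma 3.58.1 in R 4.3.3 fitted 7 group means to all 25 arrays (18 residual degrees of freedom), with no intensity filter. Differences are log2 fold changes ± moderated standard errors, and a gene was called when its p, adjusted by Benjamini-Hochberg over 22180 genes, was under 0.05. Precision is limited by the 2 to 4 arrays a group. Groups are separated where their ranges do not overlap. The fit was tested on simulated data, where it called 43.3%, 34.3% and 37.3% of 1.5-fold changes at 4, 8 and 12 weeks. For 2-fold changes it called 86.6%, 85.1% and 88.1%, and 3.82%, 3.97% and 7.45% of all calls were false.

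The genes, the lists and the marker genes were chosen with earlier results of these data known. Named beyond the members were list genes called between the diets, up to 3 uncalled per list with the highest mean, and the 5 genes most like Ptger3 by each measure, predicted genes left out. Alternatives were other normalizations, filters, blocks, covariates, array weights, the design text's rule, and each array left out in turn.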

Additional observations from a re-analysis of the deposited data

Results flagged for a closer look

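In groups of 4, the highest or lowest array of a gene stood apart from the others, by the ratio of its gap to the whole range, in 5 of 45 sets of gene and group. Chance alone gives about 1 in 20. Ptger2 in 12HFD array 3 read 6.31, with the next array at 5.52. Hpgds in 8HFD array 1 read 8.15, with the next at 6.70. Ptgs2 in 8HFD array 1 read 4.92, with the next at 5.29. Ptger4 in 8LFD array 4 read 7.22, with the next at 6.73. Ptgfr in 8LFD array 2 read 6.41, with the next at 6.15. 8HFD array 1 appears for both Hpgds and Ptgs2, and it had the highest macrophage mean of all arrays, 10.35.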

How the results depend on the processing

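The number of the 9 genes called at 8 weeks was 0, and became 1 with a filter on low values, with the replicate block, with the hepatocyte block and with hepatocyte and epididymis covariates, 3 with array weights and without the 3 arrays with epididymis transcripts, and 4 by the design text's rule (unadjusted p under 0.05 and at least 1.5-fold). At 12 weeks it was 1, and became 2 with array weights, the replicate block, the covariates and without those 3 arrays, and 3 with the compared groups alone and by the design text's rule. Averaged over the times it was 2, and became 3 with the compared groups alone and array weights and 4 with the hepatocyte block and the covariates. By the design text's rule 1 gene was called for LFD at 12 against 4 weeks, 1 for HFD at 8 against 4 and at 12 against 4 weeks, and 2 (Ptger3 and Ptgfr) for the interaction; the hepatocyte block also called 1 for HFD at 12 against 4 weeks. The cause of these moves was not tested. The filter on low values keeps 6 of the 9 genes and leaves out Ptger2, Ptgs2 and Ptgds. Leaving out each array gave 0 to 1 calls at 8 weeks, 0 to 2 at 12 weeks, 2 to 3 on average and 0 to 1 for 12 against 4 weeks on either diet, and 0 to 0 elsewhere. No difference that had been called changed sign. Over all genes, calls at 8 weeks numbered 533, against 313 with array medians aligned, 841 by the design text's rule, 967 with the covariates, 1251 without the 3 arrays and 1267 with array weights. At 12 weeks they numbered 989, against 1787 with array weights and 1865 without the 3 arrays, and on average 2322 against 623 by the design text's rule. Deviations of same-numbered arrays of different groups had correlations of -0.61 to 0.71 over 67 pairs, with 29 above 0.1. With no other pairs set beside them, these values do not decide whether same-numbered arrays deviated together. The labels name no pairing, so the numbers were not taken as pairs in the main fit.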
